A study of Mus musculus with 6 samples.

Results

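The genes of glycolysis and of the transcriptional response to low oxygen were examined in retinal endothelial cells of mouse pups, isolated on postnatal day 7. The members were 37 genes of these pathways, chosen by symbol with earlier results of these data known. All 37 were found among the 24421 genes of the count table. The edgeR filter on low counts kept 36 of them among 14362 genes tested, leaving out Car9. Each gene's RNA was compared between 3 Smad4-iECKO samples and 3 Smad4f/f samples. The Smad4-iECKO pups carried floxed Smad4 and Cdh5-CreERT2, a Cre recombinase that is activated by tamoxifen and driven by the promoter of the endothelial cadherin gene. The Smad4f/f pups carried the floxed gene without Cre. Tamoxifen on postnatal day 1 and a mixed BL6/CD1 background were shared by both groups, and sequencing libraries were made from total RNA. Whether a sample held 1 pup or several is not given in the sources used here, so p-values measure only the spread between these samples.

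Glycolysis splits glucose into pyruvate in the cytosol and yields ATP without oxygen, and sprouting endothelial cells are known to rely on it. Hypoxia-inducible factors (HIFs) pair an alpha subunit, HIF-1alpha or HIF-2alpha, with the constant partner ARNT. When oxygen is present, prolyl hydroxylases mark the alpha subunit, which the VHL protein then targets for destruction. When oxygen is scarce, the alpha subunit persists and the pair activates glycolytic enzymes, glucose transporters and stress genes. Developing retina is a tissue in which this response is well known, and photoreceptors are also heavy users of glycolysis.

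HIF binds a short core that is read here as ACGTG or GCGTG. RefSeq promoter windows of 300 bases (250 before and 50 after a start site, build GRCm38.p6) were matched by symbol for 33 of the 37 members, with 50 windows among them because some genes have several start sites. At least 1 core on either strand was present for 29 of 33 members, or 87.9%, and for 66.7% of the 10770 tested genes with a window. By window the shares were 76.0% of 50 and 60.7% of 13789. ACGTG was in 48.0% of member windows against 24.5% of those of all tested genes, and GCGTG in 52.0% against 49.5%. Median CpG counts per window were 20.5 and 20.0. ACGTG overlaps the palindrome CACGTG, which other factors also bind and which was in 10% of member windows and 9.49% of those of all tested genes. Several members are textbook HIF targets, so a core in their promoters is part of why they are known, and a match of these letters is a description and not a bound site.

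The following windows belong to the 5 members with the smallest unadjusted p that hold a core, so that the letters can be read beside the expression values. They are written 5′ to 3′ on the gene's own strand, with every ACGTG or GCGTG, or its reverse complement, in capitals. The windows lie at chr12:54203825-54204124 (minus strand) for Egln3, chr6:82774405-82774704 (minus) for Hk2, chr13:6648722-6649021 (minus) for Pfkp, chr10:78009758-78010057 (minus) for Pfkl and chr9:59656977-59657276 (plus) for Pkm.
Egln3: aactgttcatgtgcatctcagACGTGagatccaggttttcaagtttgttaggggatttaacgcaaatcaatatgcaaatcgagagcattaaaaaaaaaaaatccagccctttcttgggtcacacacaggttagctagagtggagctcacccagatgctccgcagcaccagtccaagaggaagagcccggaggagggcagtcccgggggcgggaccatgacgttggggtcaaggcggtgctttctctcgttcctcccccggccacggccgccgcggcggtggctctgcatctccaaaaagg
Hk2: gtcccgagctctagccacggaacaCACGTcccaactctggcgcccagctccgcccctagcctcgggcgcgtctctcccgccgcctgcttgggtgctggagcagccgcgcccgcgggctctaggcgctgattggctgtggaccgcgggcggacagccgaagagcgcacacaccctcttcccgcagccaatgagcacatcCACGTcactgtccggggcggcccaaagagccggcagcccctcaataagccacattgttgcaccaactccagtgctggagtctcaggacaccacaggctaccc
Pfkp: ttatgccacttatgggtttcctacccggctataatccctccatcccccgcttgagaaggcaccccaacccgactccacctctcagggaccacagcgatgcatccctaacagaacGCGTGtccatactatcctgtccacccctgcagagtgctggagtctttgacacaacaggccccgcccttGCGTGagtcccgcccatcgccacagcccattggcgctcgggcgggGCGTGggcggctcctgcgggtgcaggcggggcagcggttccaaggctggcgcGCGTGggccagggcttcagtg
Pfkl: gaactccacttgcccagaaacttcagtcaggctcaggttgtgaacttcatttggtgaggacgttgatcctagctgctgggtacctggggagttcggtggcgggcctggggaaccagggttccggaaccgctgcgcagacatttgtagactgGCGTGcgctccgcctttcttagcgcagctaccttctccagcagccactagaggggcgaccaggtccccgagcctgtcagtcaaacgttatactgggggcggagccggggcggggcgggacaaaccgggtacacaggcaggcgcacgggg
Pkm: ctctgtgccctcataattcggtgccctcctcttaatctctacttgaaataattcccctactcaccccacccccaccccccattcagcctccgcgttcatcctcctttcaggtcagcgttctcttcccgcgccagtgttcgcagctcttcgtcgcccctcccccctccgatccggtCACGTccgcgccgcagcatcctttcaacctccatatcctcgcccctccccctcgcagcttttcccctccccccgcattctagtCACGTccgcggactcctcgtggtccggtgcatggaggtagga

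Egln3 had a single core, ACGTG, 229 bases before the start site, far from the start. Hk2 had 2 copies of ACGTG on the opposite strand, of which the nearer began 52 bases before the start. Pfkp held 4 copies of GCGTG and Pfkl held 1. Pkm held 2 copies of ACGTG on the opposite strand in the window printed, and its other window (chr9:59656326-59656625) held no core. None of the 5 printed windows held CACGTG.

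Total counts ran from 12633018 to 23164952 in 5 libraries and were 2233360 in Smad4-iECKO replicate 2. That library was the highest or the lowest of the 6 for 26 of the 36 tested members, and for 70.8% of all genes tested. Sample titles begin with Lit38 (prefix 38, 2 samples per group) or Lit40 (prefix 40, 1 per group: Smad4f/f replicate 2 and Smad4-iECKO replicate 2), and the labels do not say what the prefix stands for. The cells labelled endothelial also held transcripts of neural retina. The 12 rod markers summed to 5450 to 9869 CPM (read counts scaled to library size by TMM) over the libraries, and the 18 endothelial markers to 1896 to 9509 CPM. Rod markers exceeded endothelial markers in 4 of 6 libraries. A difference in bulk RNA cannot separate fewer cells of a type from less RNA per cell. Smad4 itself, the targeted gene, was at 140.0 ± 26.5 CPM in Smad4f/f and 118.7 ± 21.7 CPM in Smad4-iECKO (SD, n = 3 each), and a count over the whole gene does not check the deletion, since exons that remain are counted too.

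The question put to the members was whether their transcripts differ after endothelial loss of Smad4. For Egln3, Hk2 and Pkm all Smad4-iECKO libraries lay above all Smad4f/f libraries, for Gapdh all lay below, and the remaining tested members overlapped between the groups. That made 3 of 36 members higher and 1 lower, where 2.49% of all genes tested were higher in this way and 2.83% lower. By edgeR's quasi-likelihood test with Benjamini-Hochberg adjustment 0 members were called, and percent called over all 14362 genes was 0. The adjusted p was 0.9999 for all 36 tested members. An unadjusted p under 0.05 was reached by 2 members, Egln3 and Hk2, or 5.56%, against 1.31% of all genes. DESeq2 also called 0 members, against 0.0611% of all genes, with 3 at an unadjusted p under 0.05 (Egln3, Hk2 and Pfkp) against 2.16%. By limma-voom, which gave the libraries quality weights, 0 members were called against 0.0557% of all genes. At an unadjusted p under 0.05 limma-voom had 7 members (Adm, Ankrd37, Bnip3, Egln3, Hk2, Pdk1 and Pfkp), or 19.4%, against 5.44%.

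The log2 fold change was above 0 for 26 of 36 members, against 48.2% of all genes, and for 13 of 36 when libraries were scaled to the endothelial markers. The median was 0.14 for the members and -0.02 for all genes with TMM scaling, and -0.23 and -0.35 with endothelial scaling, so the members' median lay above that of all genes under both scalings while its sign differed. By role, 13 of 17 glycolytic enzymes were above 0 (median 0.16), 4 of 4 genes of glycolytic control and glucose entry (0.24), 3 of 6 oxygen sensors and HIF subunits (-0.03) and 6 of 9 other HIF targets (0.07). The members were picked with results of these data known, so these counts describe them and support no further statement.

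**Figure D1:**
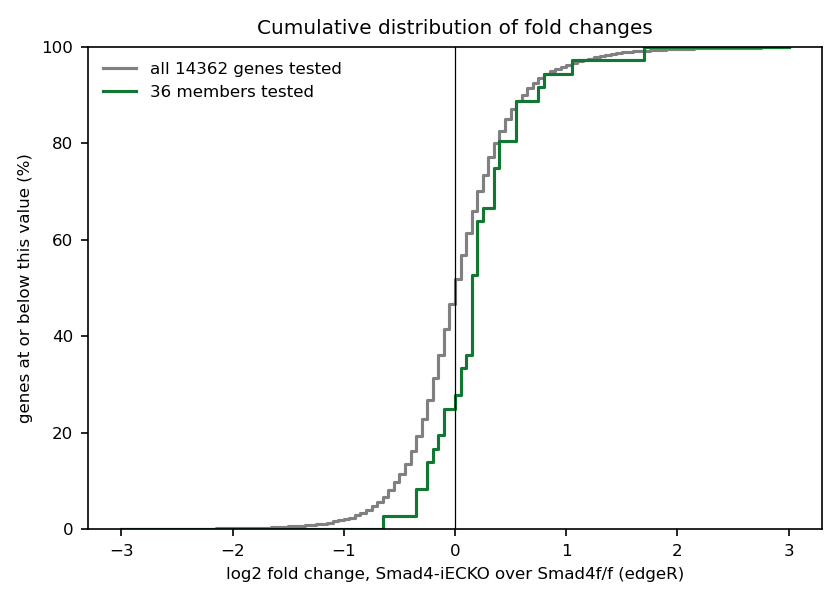
Cumulative share of genes (vertical axis, %) at or below each log2 fold change, in steps of 0.05, of Smad4-iECKO over Smad4f/f (horizontal axis, edgeR) for the 36 tested members and for all 14362 genes tested. The member curve lies to the right near 0, where 26 of 36 members are above 0 against 48.2% of all genes, and the last member step is Egln3 (1.66).

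Glucose enters the pathway through hexokinases, which trap it as glucose 6-phosphate. Hk2 (chromosome 6, 82725025 to 82774454, mm10), the inducible isozyme, was at 11.5, 13.3 and 24.2 CPM in Smad4f/f replicates 1, 2 and 3 and at 37.4, 31.6 and 31.3 CPM in Smad4-iECKO replicates 1, 2 and 3. All 3 Smad4-iECKO libraries lay above the highest Smad4f/f library, Smad4f/f replicate 3. Smad4f/f averaged 16.3 ± 6.86 CPM and Smad4-iECKO 33.4 ± 3.41 CPM (SD, n = 3 each), a 2.05-fold ratio, with log2 fold change 1.04, standard error 0.37 and an edgeR adjusted p of 0.9999 (unadjusted 0.0214). Without Smad4-iECKO replicate 1, Smad4f/f replicate 2 or Smad4f/f replicate 1 the unadjusted edgeR p was 0.0759, 0.0748 or 0.0617. It stayed under 0.05 when any other library was left out. Hk1, the constitutive isozyme, was at 238.2, 283.5 and 320.3 CPM in Smad4f/f and at 284.8, 409.5 and 274.7 CPM in Smad4-iECKO, with overlapping groups. Hk2 was the minor isozyme in every library. Per kb of exon, it made up 4.01%, 3.88% and 6.12% of the 2 hexokinases in Smad4f/f and 10.2%, 6.25% and 8.97% of them in Smad4-iECKO. The Hk2 share did not overlap between the groups (4.67 ± 1.26% and 8.47 ± 2.01%), although Smad4f/f replicate 3 and Smad4-iECKO replicate 2 were within a fraction of a percentage point. Hk2 in Smad4-iECKO replicate 2 rests on 68 reads, which allow 24.5 to 40.1 CPM (exact Poisson 95% interval, counting error only). An exact two-sided permutation test gave p = 0.1, the floor for 3 against 3 samples, and 0.4 after adjustment over 8 shares.

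Phosphofructokinase commits the sugar to glycolysis, and 3 genes encode its subunits. Pfkp (chromosome 13, 6579768 to 6648777), the platelet-type subunit, was at 235.2, 170.2 and 186.4 CPM in Smad4f/f replicates 1 to 3 and at 374.8, 404.9 and 212.1 CPM in Smad4-iECKO replicates 1 to 3. Smad4-iECKO replicates 1 and 2 stood above all Smad4f/f libraries, and replicate 3 lay inside their range. Its log2 fold change was 0.74 ± 0.34 (standard error, edgeR adjusted p = 0.9999, unadjusted 0.0543). Pfkl (chromosome 10, 77986947 to 78010083), the liver-type subunit, was at 172.7, 150.9 and 202.2 CPM in Smad4f/f and at 222.7, 337.5 and 187.8 CPM in Smad4-iECKO. Its highest value came from the shallow Smad4-iECKO replicate 2, and the log2 fold change of 0.51 was 0.20 without that library. Pfkm (chromosome 15, 98092589 to 98132451), the muscle-type subunit, was at 54.6, 57.4 and 57.2 CPM in Smad4f/f and at 54.5, 105.5 and 55.3 CPM in Smad4-iECKO. Smad4-iECKO replicate 2 stood apart from the other 5 values, and without it the log2 fold change went from 0.34 to -0.07. Pfkp made up 41.0 ± 4.47% of the 3 subunits per kb in Smad4f/f, and in Smad4-iECKO 45.8 ± 6.09% (exact permutation p = 0.4, adjusted p = 0.571, n = 3 each). The difference of 4.82 percentage points was 1.31 without Smad4-iECKO replicate 1, and with Smad4f/f replicate 3 or Smad4f/f replicate 1 left out it was 2.90 or 7.27.

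**Figure D2:**
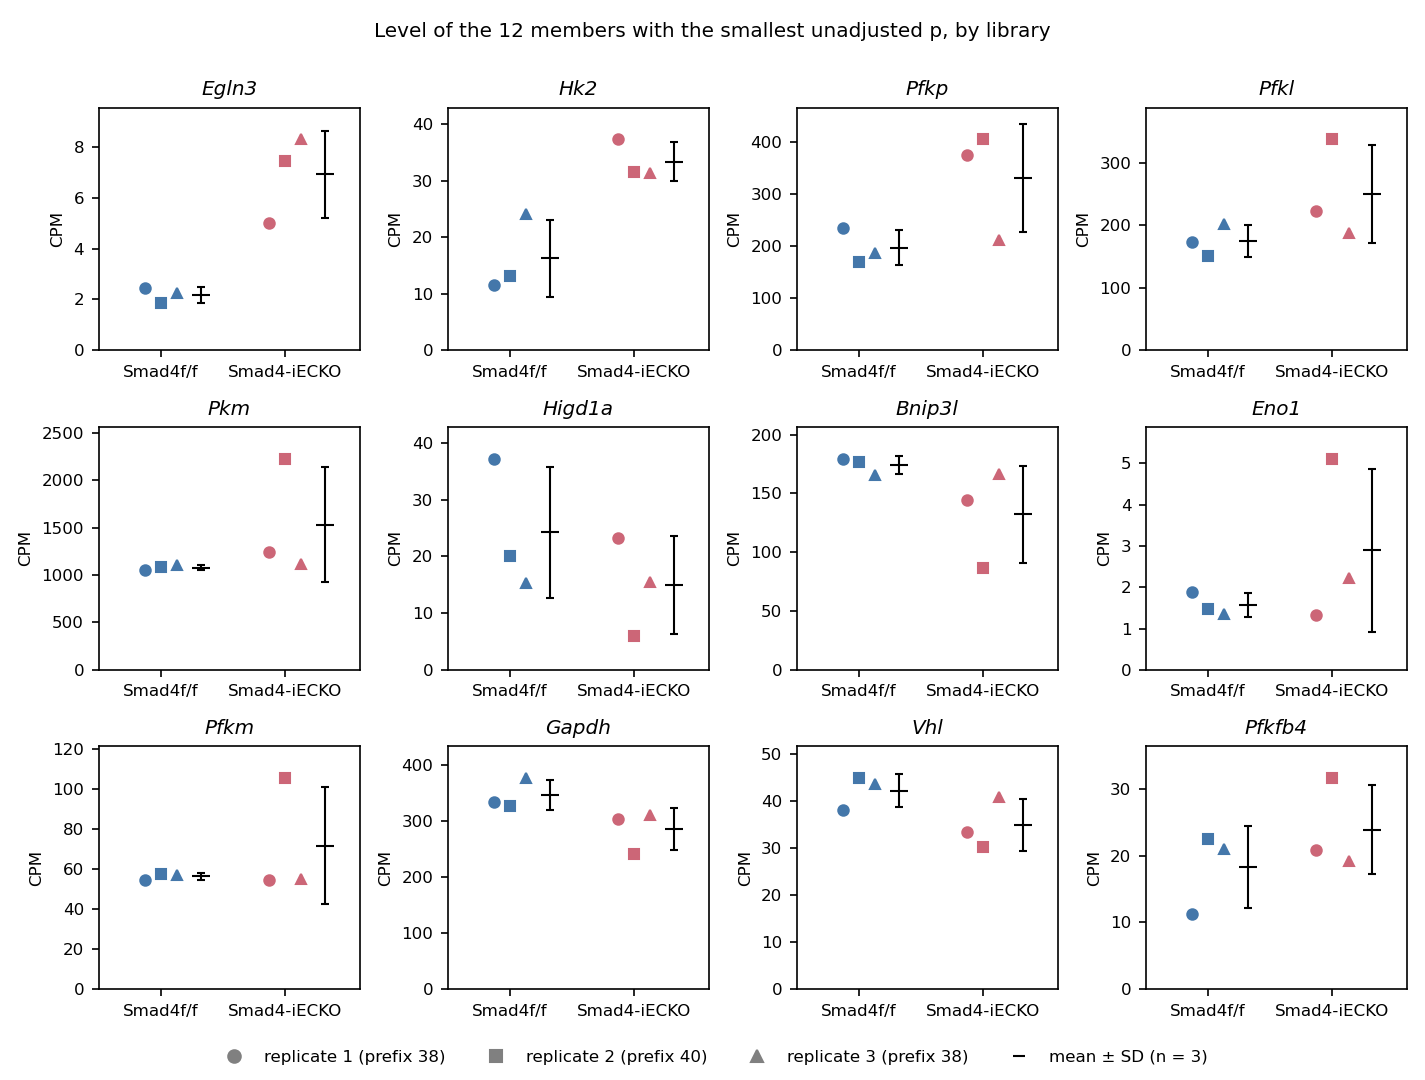
CPM (vertical axes, from 0) in each of the 6 libraries for the 12 members with the smallest unadjusted edgeR p, with Smad4f/f at left and Smad4-iECKO at right of each panel, symbols for replicates and the bar for mean ± SD (n = 3). Egln3, Hk2 and Pkm have all Smad4-iECKO points above the Smad4f/f points, and Gapdh has all below. The square of Smad4-iECKO replicate 2 is farthest from the others in several panels, Pfkl, Pkm, Pfkm, Eno1, Bnip3l and Gapdh among them.

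In the middle of the pathway the values of Aldoa, Tpi1 and Pgk1 were close across the libraries. Aldolase A (Aldoa) ranged from 439.7 to 525.9 CPM over all 6 libraries, a 1.20-fold span and the narrowest of any tested member. Triosephosphate isomerase (Tpi1) spanned 1.29-fold and phosphoglycerate kinase (Pgk1) 1.34-fold, and the median span was 2.18-fold over the members and 2.54-fold over the 13050 tested genes with a count in every library. Aldoc, the aldolase of brain and glia, was far less even. It was at 74.8, 44.0 and 45.4 CPM in Smad4f/f and at 46.5, 12.1 and 92.4 CPM in Smad4-iECKO, so the Smad4-iECKO group held both the highest and the lowest library. Gpi1, the isomerase that follows hexokinase, was at 288.3 ± 71.7 CPM in Smad4f/f and 316.0 ± 12.2 CPM in Smad4-iECKO, and the mutase Pgam1 at 47.8 ± 10.01 and 43.4 ± 15.99 CPM.

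Gapdh (chromosome 6, 125161715 to 125166467), the dehydrogenase often used as a reference gene, was at 334.6, 327.8 and 377.1 CPM in Smad4f/f and at 303.5, 242.2 and 310.7 CPM in Smad4-iECKO. Every Smad4-iECKO value was below every Smad4f/f value, by little between Smad4-iECKO replicate 3 and Smad4f/f replicate 2. Its log2 fold change was -0.28 ± 0.28 (standard error, edgeR adjusted p = 0.9999). Gapdh was also the member with the most near-identical copies among annotated genes. At 95% identity or more in 1 alignment over at least 50% of the longest coding transcript, 71 other GENCODE genes matched Gapdh, of which 68 were pseudogenes, and 5 further members had such a copy (Pgk1, Eno1, Pkm, Ldha and Ldhb). How reads shared with copies were counted is not given in the sources used here, so the counts of these 6 members are uncertain.

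Enolase shows this most plainly. Eno1 (chromosome 4, 150236721 to 150248879), the ubiquitous enolase, was at 1.89, 1.48 and 1.35 CPM in Smad4f/f and at 1.33, 5.11 and 2.23 CPM in Smad4-iECKO, near the bottom of the members per kb. Eno1b, which matched an Eno1 transcript at 99.5% identity over 1736 bases, was at 43.5, 56.9 and 91.3 CPM in Smad4f/f and 61.6, 110.6 and 72.7 CPM in Smad4-iECKO. Eno1b thus held more reads than Eno1 in every library. Neuronal enolase (Eno2) was at 84.4, 196.4 and 181.6 CPM in Smad4f/f and 149.6, 220.3 and 148.3 CPM in Smad4-iECKO, with overlapping groups. The Eno2 share of Eno1 and Eno2, 98.7 ± 0.916% for Smad4f/f and 98.3 ± 0.760% for Smad4-iECKO (exact permutation p = 0.5, n = 3 each), inherits the uncertain Eno1 count.

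Pyruvate kinase and lactate dehydrogenase close the pathway, and their genes Pkm and Ldha were the 2 members with the highest level per kb of exon, at 501.7 and 421.7 CPM per kb averaged over the 6 libraries. Pkm (chromosome 9, 59656368 to 59679375) was at 1049, 1083 and 1103 CPM in Smad4f/f and at 1242, 2226 and 1120 CPM in Smad4-iECKO. The 3 Smad4f/f libraries were within a narrow band, Smad4-iECKO replicate 3 lay just above it, and Smad4-iECKO replicate 2 far above. Its log2 fold change was 0.50 ± 0.38 (standard error, edgeR adjusted p = 0.9999), and it was 0.10 without Smad4-iECKO replicate 2. Counts per gene do not separate the PKM1 and PKM2 splice forms. Ldha, which turns pyruvate to lactate, was at 593.6, 899.3 and 798.1 CPM in Smad4f/f and at 853.0, 905.5 and 744.8 CPM in Smad4-iECKO, with Smad4f/f replicate 1 apart at the low end. Ldhb, the isozyme that favours pyruvate, was at 41.2, 32.7 and 30.8 CPM in Smad4f/f and 31.1, 30.2 and 26.8 CPM in Smad4-iECKO. Ldhb made up 9.15% of the pair per kb in Smad4f/f replicate 1 and 4.62% to 5.31% in the other 5 libraries (exact permutation p = 0.2, adjusted p = 0.533, n = 3 each).

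**Figure D3:**
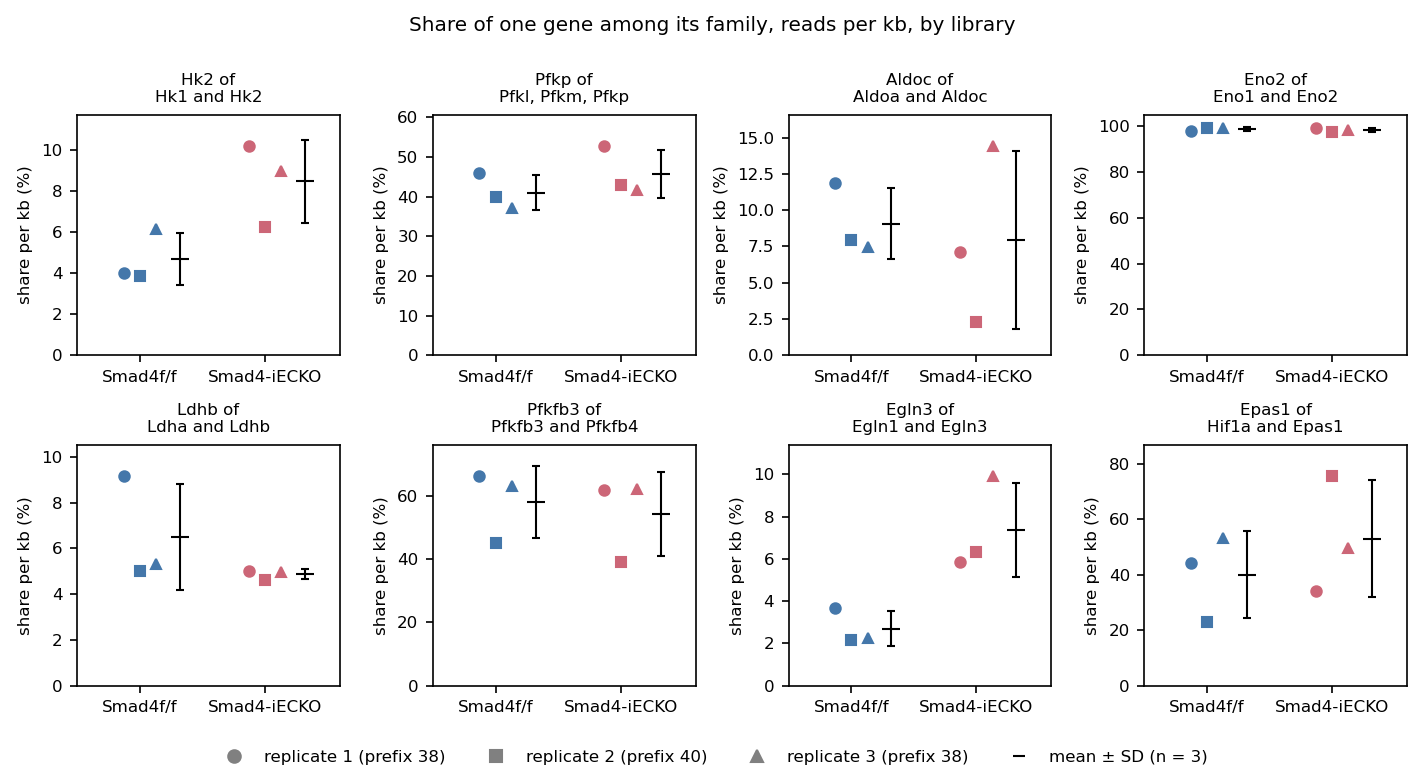
Share of a gene among its family (vertical axes, %, reads per kb of exon) in each library, by group, with symbols for replicates and the bar for mean ± SD (n = 3). The Hk2 share (3.88% to 6.12% against 6.25% to 10.2%) and the Egln3 share (2.18% to 3.66% against 5.83% to 9.91%) are apart between the groups, the Hk2 share only narrowly. The other 6 shares overlap.

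The genes that steer carbon at the entry and exit of the pathway all overlapped. Pfkfb3 and Pfkfb4 make and remove fructose 2,6-bisphosphate, the activator of phosphofructokinase. Pfkfb4 (chromosome 9, 108991778 to 109032228) was at 11.2, 22.5 and 21.02 CPM in Smad4f/f and at 20.9, 31.6 and 19.2 CPM in Smad4-iECKO. Smad4f/f replicate 1 was the low library and Smad4-iECKO replicate 2 the high one. Pfkfb3 was at 34.6, 29.1 and 56.9 CPM in Smad4f/f and 53.3, 32.1 and 49.5 CPM in Smad4-iECKO, with the 2 prefix 40 libraries lowest. The 69 reads of Smad4-iECKO replicate 2 allow 25.0 to 40.6 CPM (exact Poisson 95% interval, counting error only), which includes the value of Smad4f/f replicate 1. The Pfkfb3 share of the pair per kb was also lowest in the 2 prefix 40 libraries, at 44.9% and 39.1%. It was 61.7% to 66.1% in the prefix 38 libraries (groups: exact permutation p = 0.5, adjusted p = 0.571, n = 3 each). Pdk1, a pyruvate dehydrogenase kinase, was the most abundant of these 4 per kb. It was at 49.7, 39.0 and 50.1 CPM in Smad4f/f and at 73.5, 29.3 and 68.1 CPM in Smad4-iECKO. Within prefix 38 both Smad4-iECKO libraries were above both Smad4f/f libraries, and within prefix 40 the order was the other way. The glucose transporter gene Slc2a3 (GLUT3) had the same order, at 17.3, 14.2 and 18.6 CPM in Smad4f/f and 25.8, 7.44 and 20.6 CPM in Smad4-iECKO.

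Among the oxygen sensors, Egln3 (chromosome 12, 54178981 to 54203860), a prolyl hydroxylase that is itself a HIF target, had the largest log2 fold change and the smallest unadjusted p of the 36 tested members. It was at 2.44, 1.85 and 2.24 CPM in Smad4f/f replicates 1, 2 and 3 and at 4.999, 7.44 and 8.29 CPM in Smad4-iECKO replicates 1, 2 and 3. The Smad4f/f libraries were close to each other and the lowest Smad4-iECKO library was above them all. Smad4f/f averaged 2.18 ± 0.301 CPM and Smad4-iECKO 6.91 ± 1.71 CPM (SD, n = 3 each), a 3.17-fold ratio. Its log2 fold change was 1.66 ± 0.53 (standard error, edgeR adjusted p = 0.9999, unadjusted 0.0124). Fits without 1 of the 6 libraries gave 1.48 to 1.85, with an unadjusted edgeR p of up to 0.0705. The values rest on 30 to 45 reads in Smad4f/f and on 90, 16 and 104 reads in Smad4-iECKO, and the 16 reads of replicate 2 allow 4.25 to 12.1 CPM (exact Poisson 95% interval, counting error only).

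Egln1, the hydroxylase that sets HIF levels under normal oxygen, was at 86.8, 112.1 and 131.6 CPM in Smad4f/f and at 108.9, 149.2 and 101.7 CPM in Smad4-iECKO. Its groups overlapped. Egln3 therefore took a larger share of the 2 hydroxylases per kb in Smad4-iECKO, at 5.83%, 6.31% and 9.91% against 3.66%, 2.18% and 2.25%. An exact two-sided permutation test again gave p = 0.1, the floor of this design, and 0.4 after adjustment. Vhl (chromosome 6, 113623959 to 113631633), the adaptor that recognises hydroxylated HIF, was at 38.1, 44.8 and 43.6 CPM in Smad4f/f and 33.4, 30.2 and 40.9 CPM in Smad4-iECKO. Smad4-iECKO replicates 1 and 2 were below all Smad4f/f libraries, and replicate 3 lay inside their range.

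Per kb of exon Hif1a and Epas1 ranked 7 and 9 among the 37 members and Arnt 25, and Smad4-iECKO replicate 2 had the lowest Hif1a of the 6 libraries. Hif1a, the alpha subunit found in most cells and the most abundant gene of this role per kb, was at 570.3, 782.6 and 655.9 CPM in Smad4f/f and at 691.1, 187.3 and 691.0 CPM in Smad4-iECKO. The log2 fold change of -0.35 was 0.02 without Smad4-iECKO replicate 2. Epas1, which encodes HIF-2alpha and is enriched in endothelium, was at 456.5, 233.8 and 757.9 CPM in Smad4f/f and 361.1, 585.7 and 686.1 CPM in Smad4-iECKO. Epas1 was lowest in Smad4f/f replicate 2, the library with the lowest endothelial marker sum (1896 CPM). It was highest in Smad4f/f replicate 3 (sum 5764 CPM), while the highest sum was in Smad4f/f replicate 1 (9509 CPM). Whether Epas1 follows these markers was not tested. Epas1 was 22.8% to 53.3% of the alpha pair per kb in Smad4f/f and 34.0% to 75.5% in Smad4-iECKO, with the 75.5% in replicate 2 (exact permutation p = 0.5, adjusted p = 0.571, n = 3 each). Arnt was at 86.9 ± 8.23 CPM in Smad4f/f and 76.7 ± 31.9 CPM in Smad4-iECKO, lowest again in Smad4-iECKO replicate 2 at 40.4 CPM.

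**Figure D4:**
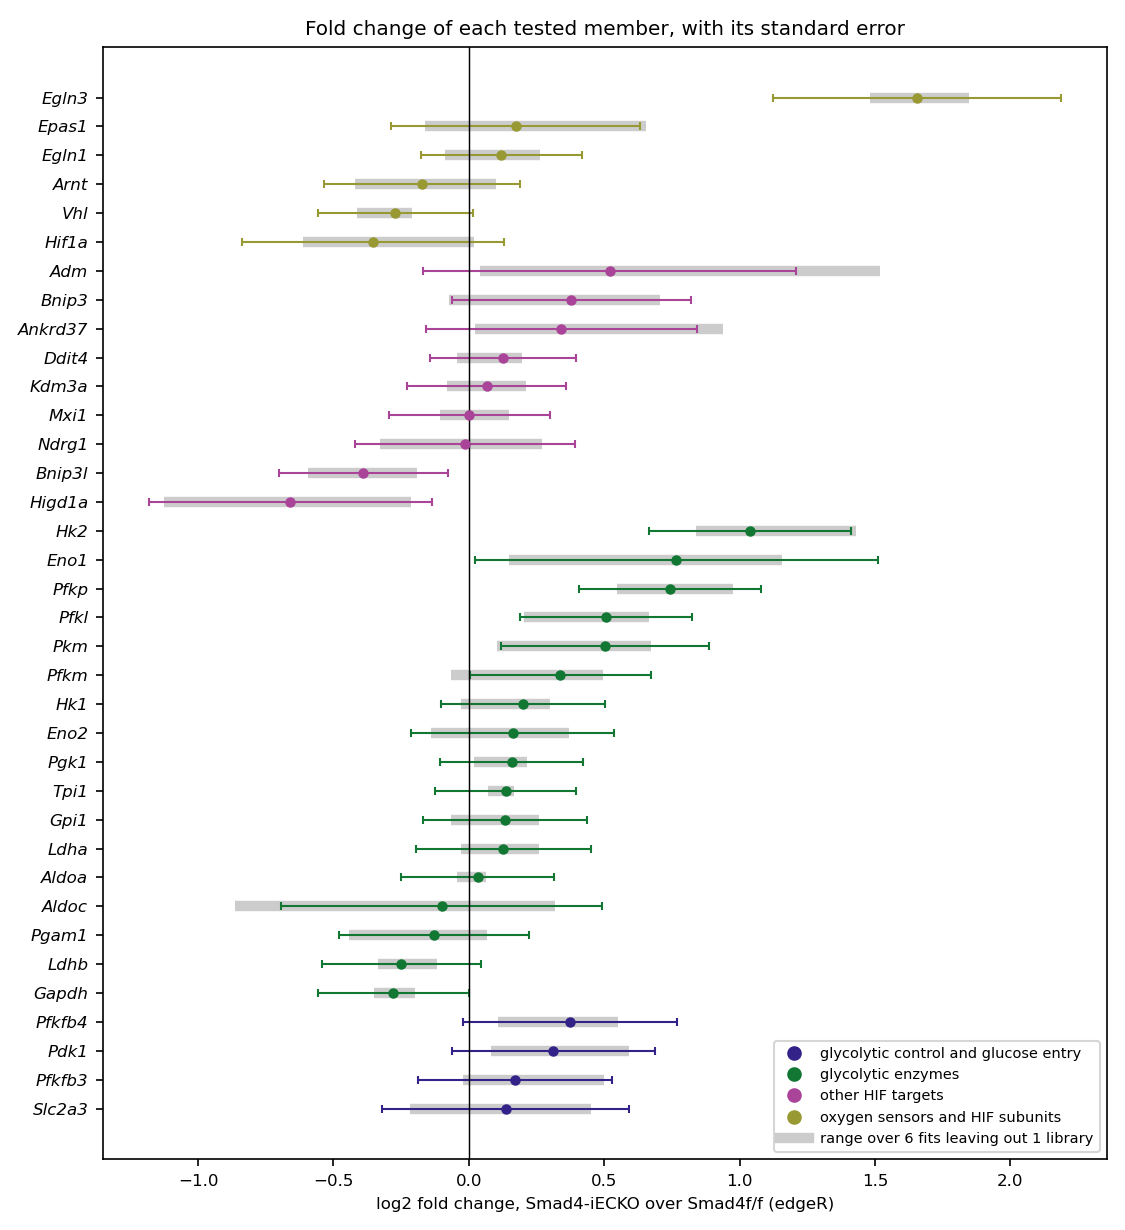
Log2 fold change of Smad4-iECKO over Smad4f/f (horizontal axis, edgeR) for each of the 36 tested members, coloured by role, with bars of 1 standard error and a grey band for the range over the 6 fits that leave out 1 library. For Egln3, Hk2, Pfkp, Pfkl, Pkm, Eno1, Higd1a, Bnip3l and, barely, Gapdh both the bar and the band stay on one side of 0, and Adm, Aldoc and Ankrd37 have wide bands.

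Other HIF targets showed no shared direction. Higd1a (chromosome 9, 121848563 to 121858362), a mitochondrial inner membrane protein, had the lowest log2 fold change of the tested members, -0.66 ± 0.52 (standard error). It was at 37.2, 20.1 and 15.3 CPM in Smad4f/f and at 23.2, 6.04 and 15.5 CPM in Smad4-iECKO, where the 6.04 CPM rests on 13 reads. Bnip3l (chromosome 14, 66985239 to 67008877), a receptor for mitophagy, was at 179.6, 176.9 and 165.4 CPM in Smad4f/f and at 144.6, 86.5 and 166.2 CPM in Smad4-iECKO. Its paralog Bnip3 was at 28.0, 31.5 and 30.7 CPM in Smad4f/f and at 59.4, 15.8 and 40.6 CPM in Smad4-iECKO. The 3 Bnip3 values of Smad4-iECKO lay on both sides of a tight Smad4f/f group. Ndrg1, a stress-induced gene and the most abundant of this role per kb, was at 363.5, 951.2 and 779.7 CPM in Smad4f/f and 790.3, 562.9 and 719.0 CPM in Smad4-iECKO. The spread of Ndrg1 was thus wider within Smad4f/f than between the group means.

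Adm, the vasodilator peptide adrenomedullin, had the widest span of the tested members, 8.58-fold, from 1.81 CPM in Smad4f/f replicate 2 to 15.5 CPM in Smad4f/f replicate 1. Its Smad4-iECKO values were close, at 12.9, 10.2 and 10.05 CPM. Ankrd37, an ankyrin repeat gene, was at 19.2, 9.14 and 5.84 CPM in Smad4f/f and 17.8, 14.4 and 11.1 CPM in Smad4-iECKO. For both genes Smad4f/f replicate 1 was the highest library of the 6. The mTOR inhibitor gene Ddit4 was at 66.6 ± 3.32 CPM and 72.8 ± 12.2 CPM (Smad4f/f, then Smad4-iECKO), the histone demethylase gene Kdm3a at 177.5 ± 20.5 and 185.4 ± 43.1 CPM and the MYC antagonist gene Mxi1 at 115.0 ± 19.2 and 114.9 ± 26.3 CPM (SD, n = 3 each). Car9, a carbonic anhydrase that is a common hypoxia marker, was near the limit of detection. It had 9, 8 and 0 reads in Smad4f/f and 8, 0 and 7 reads in Smad4-iECKO, and a count of 3 is 0.224 CPM in Smad4f/f replicate 3 and 1.39 CPM in Smad4-iECKO replicate 2.

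Within the 4 libraries of prefix 38, 10 members were higher in both Smad4-iECKO libraries than in both Smad4f/f libraries (Bnip3, Egln3, Hif1a, Hk2, Kdm3a, Mxi1, Pdk1, Pgk1, Pkm and Slc2a3), or 27.8%, against 16.2% of all genes. Gapdh and Gpi1 were lower, against 14.9%. Without Smad4-iECKO replicate 2 and with all Smad4f/f libraries, 7 members were higher and 1 lower, or 19.4% and 2.78%, against 7.51% and 5.56% of all genes. These counts were chosen after the data were seen. The edgeR fold change in prefix 38 was above 0 for 25 of 36 members (48.9% of all genes), and the ratio of the prefix 40 pair for 19 of 36 (52.1% of all genes). The sign was shared by both prefixes for 18 of 36 members, against 41.8% of all genes, and 13 of these were above 0 in both, against 20.9%. Among them were Egln3 (1.48 in prefix 38 and 2.01 in the prefix 40 pair, log2), Hk2 (0.93 and 1.25) and Pfkp (0.46 and 1.25). Bnip3 (0.76 and -0.996), Pdk1 (0.49 and -0.41) and Slc2a3 (0.36 and -0.94) had opposite signs. The prefix 40 pair has 1 library per group and no test, and its Smad4-iECKO library is the shallow one.

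**Figure D5:**
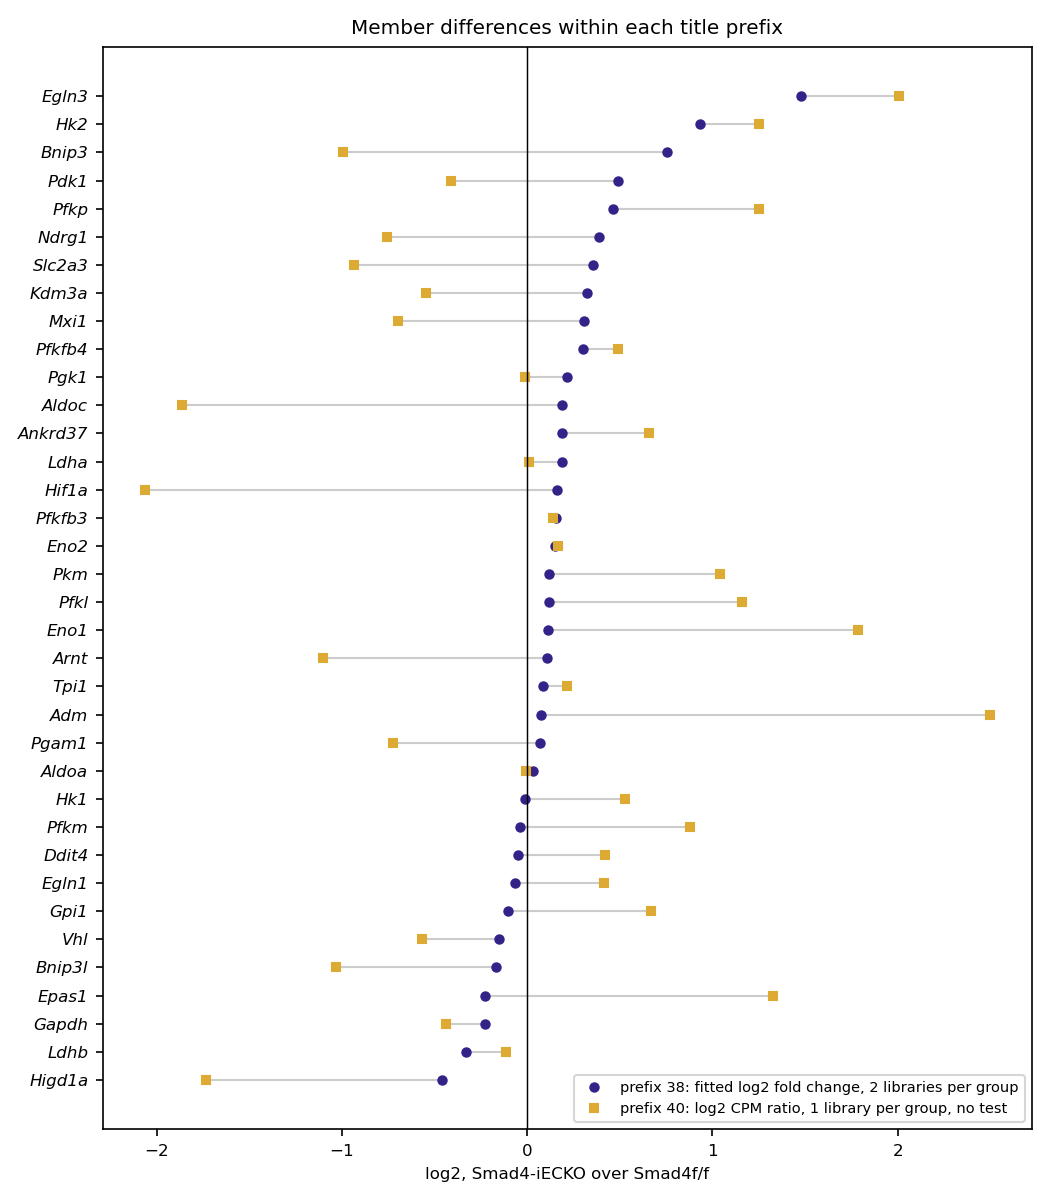
Log2 difference of Smad4-iECKO over Smad4f/f (horizontal axis) for each tested member within prefix 38 (circles, edgeR fit of 2 libraries per group) and within prefix 40 (squares, ratio of CPM of 1 library per group, no test). Egln3 and Hk2 are to the right of 0 in both, and the squares reach farther than the circles, from -2.06 for Hif1a to 2.50 for Adm.

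Markers of other cell types were read beside these values. Fibroblast markers were the 1 list of 12 whose summed level did not overlap, at 19.7 to 32.9 CPM in Smad4f/f and 53.2 to 335.1 CPM in Smad4-iECKO. This sum came from Col1a1 and Col1a2, with Lum at 0 in all libraries and Dcn at 0 in 5 of 6. Microglia and macrophage markers summed to 55.3 to 105.3 CPM and 99.9 to 149.8 CPM, with 9 of 11 above 0 in log2 fold change and P2ry12 and C1qa at 0 in Smad4-iECKO replicate 2. Of these 11 markers 5 (Tmem119, C1qb, C1qc, Itgam and Laptm5) were higher in every Smad4-iECKO library, against 2.49% of all genes, and 3 had an unadjusted edgeR p under 0.05, against 1.31%. Astrocyte markers summed to 99.2 to 398.4 CPM and 173.4 to 695.5 CPM, with 5 of 5 above 0 and Pax2 higher in every Smad4-iECKO library. Mueller glia markers summed to 673.0 to 1032 CPM and 659.9 to 941.4 CPM (5 of 7 above 0, Aqp4 at 0 in Smad4-iECKO replicate 2). Rod markers (4 of 12 above 0) and endothelial markers (6 of 18 above 0) overlapped between the groups too, at 5450 to 9869 against 5759 to 7824 CPM and at 1896 to 9509 against 3334 to 6886 CPM. Pericyte and smooth muscle markers summed to 622.9 to 2850 CPM and 1106 to 2058 CPM. The part of these cells in the differences of Egln3, Hk2, Pkm and Gapdh was not tested.

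Further genes of both pathways gave a mixed picture. Of 40 other hypoxia genes 38 were tested, with 22 above 0 and 16 below (median 0.17, where 48.2% of all genes were above 0) and 0 called by edgeR. In CPM 6 were higher in every Smad4-iECKO library (Vegfa, Pgf, Slc16a3, P4ha2, Car12 and Stc2) and 0 lower, where 2.49% of all genes were higher in this way and 2.83% lower. Vegfa, the main angiogenic ligand, was at 185.1, 136.0 and 147.7 CPM in Smad4f/f and 352.0, 364.0 and 238.7 CPM in Smad4-iECKO. P4ha2, a collagen prolyl hydroxylase subunit, was at 5.05, 5.51 and 4.26 CPM in Smad4f/f and 12.2, 14.4 and 11.5 CPM in Smad4-iECKO. Car12, the carbonic anhydrase related to Car9, was at 0.0788, 0.576 and 0 CPM in Smad4f/f (1, 14 and 0 reads) and at 2.11, 5.11 and 1.67 CPM in Smad4-iECKO (38, 11 and 21 reads). Pgf, placental growth factor, was at 3.15, 3.87 and 1.35 CPM in Smad4f/f and 7.94, 10.7 and 6.38 CPM in Smad4-iECKO. For each of these 4 genes the CPM ranges of the groups did not overlap, and the edgeR adjusted p was 0.9999.

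Of 34 other genes of glucose metabolism 27 were tested, with 6 above 0 and 21 below (median -0.37, where 48.2% of all genes were above 0) and 0 called by edgeR. In CPM 3 were lower in every Smad4-iECKO library (Slc16a1, Mpc2 and Taldo1) and 0 higher, where 2.83% of all genes were lower in this way and 2.49% higher. Slc16a1, which carries lactate and ketones across the membrane, was at 393.8, 69.5 and 261.1 CPM in Smad4f/f and 32.9, 30.2 and 46.9 CPM in Smad4-iECKO. Mpc2, part of the mitochondrial pyruvate carrier, was at 27.0, 17.3 and 15.7 CPM in Smad4f/f and 15.1, 10.2 and 15.1 CPM in Smad4-iECKO. Taldo1, of the pentose phosphate pathway, was at 106.4, 65.9 and 85.6 CPM in Smad4f/f and 63.8, 63.2 and 61.1 CPM in Smad4-iECKO. The pyruvate dehydrogenase kinase gene Pdk4 was at 4.65, 2.80 and 7.63 CPM in Smad4f/f and 0.889, 0 and 3.67 CPM in Smad4-iECKO. Its groups overlapped, and the 0 in Smad4-iECKO replicate 2 allows up to 1.39 CPM (3 counts, counting error only).

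The authors' deposited table of this comparison called 9 of 36 members at its adjusted p under 0.05, or 25.0%, against 13.4% of all genes with an adjusted p. In that table Egln3, Hk2, Pfkp, Pfkl, Pkm and Tpi1 were higher in Smad4-iECKO (6 of 36, against 7.7% of all genes) and Bnip3l, Gapdh and Vhl were lower (3 of 36, against 5.69%). The authors' deposited table gave Egln3 a log2 fold change of 1.55 ± 0.16 (standard error) and Hk2 one of 0.99 ± 0.17. Each sample had 3 identical columns of counts, and which columns entered the authors' deposited table is not given in the sources used here. DESeq2 run on all 18 columns as if each were a sample called 8 of 37 members (Egln3, Gapdh, Hk2, Pfkl, Pfkp, Pkm, Tpi1 and Vhl), against 12.1% of all genes, and 93.3% of the genes called in the authors' deposited table were called in this run. The median standard error over the tested members was 0.16 in the authors' deposited table, 0.17 with 18 columns and 0.40 with 6 samples.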

How the data were processed

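RNA of isolated retinal endothelial cells was purified with a GeneJet kit and sequenced after TruSeq (v2) library construction, per the labels' protocols. The submitters' processing notes name STAR, DESeq2 and mm10. No counting tool or annotation is given in the sources used here. The authors' deposited read counts per gene are whole numbers, not normalized, in 18 columns, 3 identical ones per sample, of which 1 was used. The authors' deposited comparison holds, per the file headers, a mean normalized signal, a log2 fold change, its standard error and test score, and p-values.

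Groups come from the genotype label, and replicate numbers follow accession order and pair nothing. Counts were tested with edgeR 4.0.16 (quasi-likelihood, R 4.3.3) with TMM scaling, filterByExpr (minimum count 10, minimum total 15) and Benjamini-Hochberg adjustment over all genes tested, called at 0.05. The standard error was the size of the log2 fold change divided by the square root of F. DESeq2 1.42.0 and limma-voom 3.58.1 with sample quality weights were alternatives, with other scalings, no filter, the title prefix as a block, prefix 38 alone and each library left out. Shares used exon lengths of GENCODE M21 (basic set, mm10) and exact two-sided permutation tests. Copies were searched with blastn in GENCODE M21 transcripts. Scripts were tested on simulated data. Members and lists were chosen with earlier results of these data known. All members are named, with values in every sample for the 12 with the smallest unadjusted p, the most abundant per role, and the pairs compared, and up to 4 genes of each further list by p. Promoters are from RefSeq (GRCm38.p6). Depth limits the shallow Smad4-iECKO replicate 2, where 3 counts are 1.39 CPM, against 0.123 to 0.239 CPM elsewhere. Figures were drawn with matplotlib 3.10.9.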

Additional observations from a re-analysis of the deposited data

How the results depend on the processing

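No member was called by edgeR in any setting or by DESeq2 or limma-voom on 6 samples, and over all genes DESeq2 called 12, limma-voom 8, and edgeR 0 in each of its fits. With all 18 columns DESeq2 called 2235 genes and 8 members, a run in which identical columns count as samples. The median log2 fold change of the members was -0.23 and the count above 0 was 13 of 36 with endothelial scaling. In the other settings on 6 samples or on prefix 38 the median was 0.09 to 0.14 with 24 to 27 members above 0, and leaving out 1 library gave 0.08 to 0.19 and 21 to 27. Of the tested members, 16 kept 1 direction in every setting except endothelial scaling. Above 0 these were Adm, Ankrd37, Egln3, Eno1, Hk2, Pdk1, Pfkfb4, Pfkl, Pfkp, Pgk1, Pkm and Tpi1, and below 0 Bnip3l, Gapdh, Ldhb and Vhl. With endothelial scaling Tpi1, Pgk1 and Pfkfb4 turned, and the others of these kept their direction. Log2 fold changes of opposite sign, none of them called, were as follows. With endothelial scaling they were Hk1 -0.24, Gpi1 -0.020, Pfkm -0.14, Aldoa -0.25, Tpi1 -0.14, Pgk1 -0.13, Eno2 -0.47, Ldha -0.37, Pfkfb4 -0.21, Egln1 -0.32, Ddit4 -0.25, Kdm3a -0.32 and Mxi1 -0.43. With limma-voom they were Hk1 -0.086, Pfkm -0.035, Aldoc 0.36, Eno2 -0.19, Egln1 -0.19, Epas1 -0.17, Arnt 0.0036 and Higd1a 0.11. With prefix 38 alone they were Hk1 -0.011, Gpi1 -0.10, Pfkm -0.041, Aldoc 0.19, Pgam1 0.067, Egln1 -0.065, Hif1a 0.16, Epas1 -0.23, Arnt 0.11, Ndrg1 0.39 and Ddit4 -0.051. With the title prefix as a block they were Slc2a3 -0.016, Ndrg1 0.020 and Mxi1 -0.0092, and without a filter Mxi1 -0.012. Leaving out 1 library turned the sign for 19 members, with ranges of Hk1 -0.030 to 0.30, Gpi1 -0.064 to 0.26, Pfkm -0.066 to 0.50, Aldoa -0.045 to 0.065, Aldoc -0.86 to 0.32, Pgam1 -0.44 to 0.068, Eno2 -0.14 to 0.37, Ldha -0.031 to 0.26, Pfkfb3 -0.020 to 0.50, Slc2a3 -0.22 to 0.45, Egln1 -0.090 to 0.26, Hif1a -0.61 to 0.018, Epas1 -0.16 to 0.65, Arnt -0.42 to 0.10, Bnip3 -0.074 to 0.71, Ndrg1 -0.33 to 0.27, Ddit4 -0.044 to 0.20, Kdm3a -0.080 to 0.21 and Mxi1 -0.11 to 0.15. Differences of shares in percentage points also turned. With prefix 38 alone they were 1.10 for Aldoc, 0.31 for Eno2 and -6.95 for Epas1. Leaving out 1 library gave -4.38 to 1.68 for Aldoc, -0.88 to 0.046 for Eno2 and -10.4 to 3.77 for Pfkfb3. The other shares kept their sign when 1 library was left out. They ranged from 1.31 to 7.27 for Pfkp, -2.36 to -0.29 for Ldhb and 1.70 to 22.4 for Epas1. For Hk2 the range was 2.94 to 4.91 and for Egln3 3.37 to 5.41. The cause of these turns was not tested. Replicate numbers come from accession order and pair nothing, so the one blocked fit used the title prefix. With that block edgeR called 0 genes and 0 members, with a median of 0.14 and 25 of 36 members above 0. With ACGTG alone 20 of 33 members had a core, against 29 with either core.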
